A study of Homo sapiens with 24 samples.

Results

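What a single dose of X-rays changed in FaDu spheroids that had just been heated is described here from the 6 RNA libraries of heated FaDu spheroids, out of 24 samples in the series. The 6 were chosen by their labels alone: 3 libraries of HT + RT and 3 of HT. FaDu is a human line from a squamous cell carcinoma of the hypopharynx, grown for 4 days into spheroids about 400 µm across. HT spheroids were held at 42.5 °C for 60 min and received 0 Gy. HT + RT spheroids had the same heat and directly afterwards 7 Gy at room temperature. RNA was taken 0.5 h after treatment in both groups, and the 3 replicates are independent experiments with 1 line. Both groups are heated, so the comparison is of 7 Gy on top of heat and not of heat itself. The methods of the study include 0 Gy among the single doses given at room temperature. Whether the HT spheroids taken for RNA were handled in that way or sham irradiated is not stated, so dose and handling cannot be told apart. The study counts time points from HT or from HT/RT, so time since the end of heat may also differ between the groups. By how much is not stated. For comparison, values are set beside unheated FaDu spheroids (RT with 7 Gy and control with 0 Gy, 3 libraries each, same age and time point) and beside heated SAS spheroids, from a squamous cell carcinoma of the tongue (HT with 0 Gy and HT + RT with 10 Gy, 3 libraries each).

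Ionizing radiation breaks both strands of DNA and sets off ATM-dependent signaling, p53 target genes, NF-kappaB and MAP kinase cascades. Heat unfolds proteins and activates HSF1, which drives chaperone genes, and it also induces many immediate early genes, whose transcripts rise within minutes of a stimulus without new protein synthesis. At 0.5 h after treatment, changes in transcript level are mostly those of such quickly induced or short-lived transcripts.

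The HT libraries held 16794578, 18188944 and 17673528 counts, and the HT + RT libraries 17221775, 15203484 and 29452514. The third HT + RT library was the deepest of the 6 and the second the shallowest. Genes with at least 1 count numbered 28404, 25711 and 26993 in HT and 24293, 25656 and 28034 in HT + RT. Levels are given as CPM, counts scaled to library size, with TMM factors over the 12 FaDu libraries (for SAS over its own 6), always in the order of replicates 1, 2 and 3. Differences were tested with edgeR's quasi-likelihood test and Benjamini-Hochberg adjustment, first on unpaired groups and then with numbers as blocks. Each fold change is a log2 value with 3 libraries per group. Where ± is given, it is a standard error derived from the log2 value and the test statistic. In what follows, rose and fell are used only for genes with adjusted p under 0.05 in the fit with the block.

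Replicate number 1 stood apart from numbers 2 and 3 in both groups. Between HT libraries the chi-square per gene, which counting noise alone would put near 1, was 16.4 for replicates 1 and 2, 19.5 for 1 and 3 and 4.69 for 2 and 3. Between HT + RT libraries it was 15.1, 18.2 and 3.46 for the same pairs. On the first principal component of the 6 libraries (48.8% of variance), number 1 lay at -34.88 (HT) and -30.79 (HT + RT), and the other 4 libraries lay between 11.01 and 21.05. The second component (15.5%) placed HT + RT above HT within each number, at -15.99 and 19.91, -18.01 and 6.99, and 2.82 and 4.27. The step between numbers 1 and the rest was thus larger than the step between groups, and the block removes it from the test: the biological coefficient of variation was 12.2% without the block (4 residual degrees of freedom) and 4.6% with it (2 residual degrees of freedom).

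**Figure D1:**
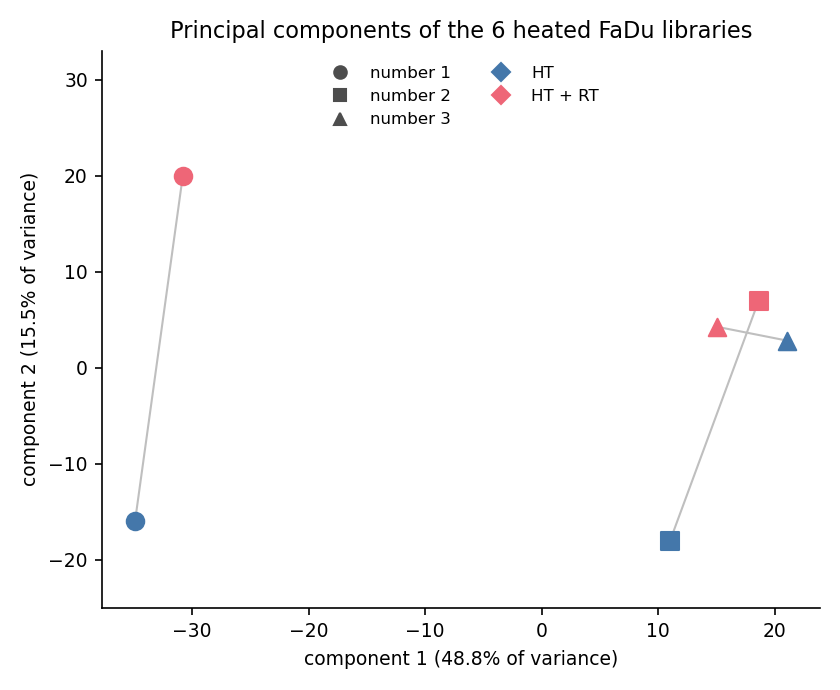
Principal components of the 6 heated FaDu libraries, with lines joining libraries of the same replicate number. The first component (48.8%) separates number 1 from numbers 2 and 3, and the second (15.5%) has HT + RT above HT in all 3 numbers.

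Squamous epithelial markers were abundant in all 6 libraries. Summed over 15 markers they reached 15909, 16645 and 15995 CPM in HT and 15572, 16227 and 15988 CPM in HT + RT, with the basal keratin KRT17 the most abundant. KRT5, another basal keratin, was at 4699, 4295 and 4066 CPM in HT and at 4571, 3967 and 3969 CPM in HT + RT. TP63, the transcription factor of basal squamous cells, was at 201, 178 and 183 CPM in HT and at 207, 189 and 184 CPM in HT + RT. For both genes the ranges of the 2 groups overlapped. Of 10 fibroblast markers 9 were under 1 CPM, of 8 endothelial markers 4, and of 10 leukocyte markers 7. The sums were 54.7, 52.9 and 70.5 CPM in HT and 48.8, 62.3 and 70.6 CPM in HT + RT for fibroblast markers, with the collagen gene COL1A1 the most abundant. Endothelial markers summed to 8.38, 8.23 and 7.43 CPM in HT and to 7.22, 7.55 and 7.84 CPM in HT + RT, with the cadherin gene CDH5 the most abundant. Leukocyte markers summed to 11.9, 8.85 and 10.2 CPM in HT and to 10.7, 8.36 and 10.9 CPM in HT + RT, with CD14 the most abundant. All 3 sums overlapped between the groups. POSTN, a fibroblast matrix gene, and the T-cell gene CD3E had no reads. The labelled cell type is what the libraries show, and the median log2 fold change of the 15 squamous markers was -0.01 beside 0 for all 16145 genes tested. In bulk RNA, fewer cells of a type and less RNA per cell cannot be told apart.

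Few transcripts differed between HT + RT and HT. Taken as unpaired groups, edgeR called 0 of 16145 genes altered (0%), where altered means adjusted p under 0.05 and a fold change over 2. At an unadjusted p under 0.05, 187 genes were higher (1.16%) and 174 lower (1.08%). DESeq2 on the same unpaired groups called 2 genes altered, KLF6 and MT-TT, and limma voom called KLF6. With the replicate block edgeR called 3 genes altered (0.0186%): KLF6 and MT-TT higher and AC105339.2 lower. By adjusted p alone, 115 genes rose (0.712%) and 39 fell (0.242%). The 3 HT + RT values lay wholly above the 3 HT values for 566 genes (3.51%) and wholly below for 652 (4.04%).

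The 154 genes that rose or fell changed little in size. Their median absolute log2 fold change was 0.33, and 20 had a value over 0.58. In all 154 the 3 differences between libraries of the same number had 1 sign. The blocked fit that chose them favors such genes, so this is no separate support. Without the block, in the same libraries, 98 had an unadjusted p under 0.05. By type, 142 were protein coding, 4 mitochondrial tRNAs, 2 lincRNAs, 2 antisense transcripts, 2 pseudogenes, 1 a miscellaneous RNA and 1 a processed transcript. DESeq2 with the block gave 75 genes by adjusted p, all of them among the 154. Leaving out both libraries of number 1 gave 146 genes, of which 113 were among the 154. Leaving out number 2 gave 89, with 78 among the 154, and leaving out number 3 gave 356, with 139 among the 154. Fewest of the 154 were thus kept without number 2, while lost calls of single genes are given below mostly for number 1. A gene for which no loss is stated may therefore have lost its call without number 2. With the 4 FaDu groups in 1 fit and a common block, 10 of the 154 were called, and with unpaired DESeq2 7. In the former KLF6 (adjusted p = 0.0032) and IER5 (0.017) were called, and RHOB (0.3), CHAC1 (0.058), TNFAIP3 (0.12), BAG3 (0.27), MAFF (0.12), IER2 (0.86) and ATF4 (0.11) were not. Counts and single calls thus depend on the experiments used and on the fit. Blocked fits with a number left out have fewer residual degrees of freedom than the full blocked fit, which has 2. Their p-values can be extreme, as for MAFF without number 3 (edgeR unadjusted p = 2.2e-99). Calls kept or lost in these fits are therefore a rough guide only.

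**Figure D2:**
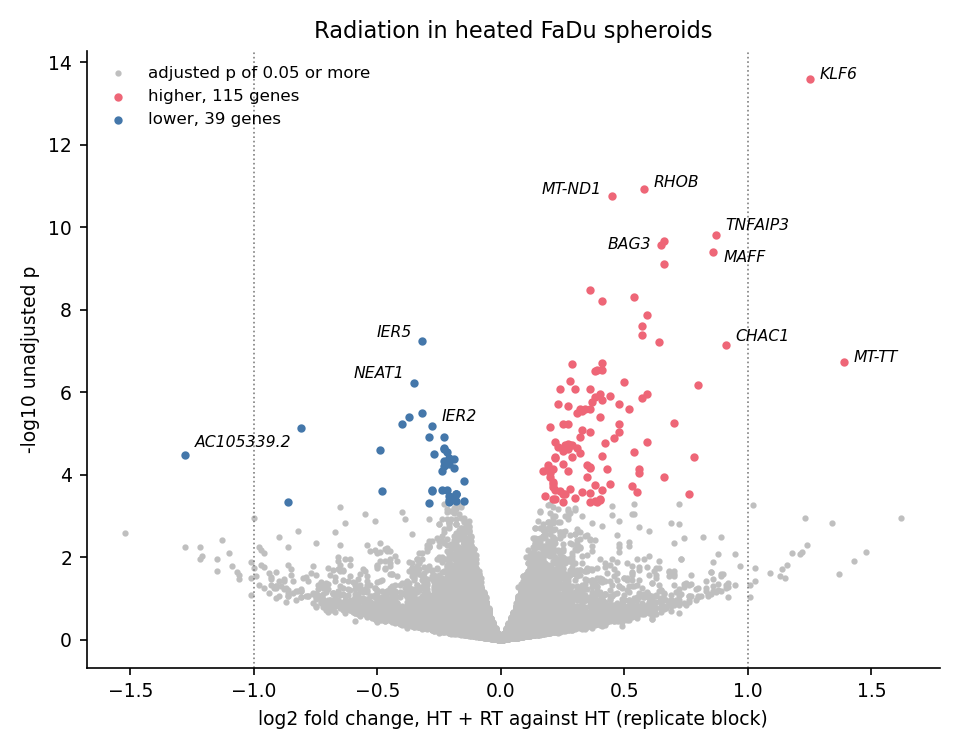
Log2 fold change (HT + RT over HT, replicate block) against unadjusted p for 16145 genes. Red, 115 genes that rose, blue, 39 that fell, dotted lines, log2 values of 1 and -1.

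KLF6 (ENSG00000067082), a zinc finger transcription factor of the immediate early class, was altered with the block and by DESeq2 and limma voom without it. It was at 33.1, 29 and 33.3 CPM in HT and at 63.6, 84.8 and 78.7 CPM in HT + RT. All 3 HT + RT values lay above all 3 HT values, and the HT + RT value of replicate 1 was the lowest of its group. The log2 fold change was 1.25 ± 0.11 (2.38-fold, adjusted p = 0.057 without the block) and 1.25 ± 0.08 with the block (adjusted p = 4.1e-10). Differences within the numbers were 0.94, 1.55 and 1.24, from summed counts of 1622 in HT and 4566 in HT + RT. Without HT + RT replicate 1 the unblocked value was 1.36 with adjusted p = 0.0045, which is the only single library whose removal brought a gene past both thresholds. With the block, leaving out number 1, 2 or 3 gave 1.39, 1.1 and 1.25.

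Promoters of 6 genes to which the results return are printed here as the 250 bases before the annotated start, from RefSeq (GRCh38.p14) and on the strand of the gene: KLF6 at chr10:3785210-3785459 (minus strand), the endosomal GTPase gene RHOB at chr2:20446824-20447073 (plus), the glutathione-degrading enzyme gene CHAC1 at chr15:40953221-40953470 (plus), TNFAIP3, which encodes the NF-kappaB inhibitor A20, at chr6:137867009-137867258 (plus), the HSP70 cochaperone gene BAG3 at chr10:119651130-119651379 (plus) and the immediate early gene IER5 at chr1:181088450-181088699 (plus). Capitals mark matches to the motifs searched for, on either strand.
KLF6: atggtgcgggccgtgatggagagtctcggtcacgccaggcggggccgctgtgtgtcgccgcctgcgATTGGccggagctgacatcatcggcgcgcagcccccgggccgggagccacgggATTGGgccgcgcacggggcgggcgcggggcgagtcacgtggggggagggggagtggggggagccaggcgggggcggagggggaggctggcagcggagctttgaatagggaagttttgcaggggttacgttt
RHOB: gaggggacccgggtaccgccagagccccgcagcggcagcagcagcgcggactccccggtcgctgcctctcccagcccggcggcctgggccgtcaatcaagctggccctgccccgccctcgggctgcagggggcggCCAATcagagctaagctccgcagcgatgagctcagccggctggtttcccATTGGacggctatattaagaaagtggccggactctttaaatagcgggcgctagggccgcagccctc
CHAC1: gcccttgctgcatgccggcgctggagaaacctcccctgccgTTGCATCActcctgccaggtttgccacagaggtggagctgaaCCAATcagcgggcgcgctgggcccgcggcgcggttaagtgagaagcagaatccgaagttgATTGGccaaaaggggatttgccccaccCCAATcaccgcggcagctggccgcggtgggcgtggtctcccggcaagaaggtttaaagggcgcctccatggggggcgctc
TNFAIP3: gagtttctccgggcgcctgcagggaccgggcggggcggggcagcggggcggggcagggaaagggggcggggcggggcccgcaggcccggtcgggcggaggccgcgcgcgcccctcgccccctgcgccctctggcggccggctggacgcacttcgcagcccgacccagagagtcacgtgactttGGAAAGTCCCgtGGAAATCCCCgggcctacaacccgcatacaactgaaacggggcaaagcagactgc
BAG3: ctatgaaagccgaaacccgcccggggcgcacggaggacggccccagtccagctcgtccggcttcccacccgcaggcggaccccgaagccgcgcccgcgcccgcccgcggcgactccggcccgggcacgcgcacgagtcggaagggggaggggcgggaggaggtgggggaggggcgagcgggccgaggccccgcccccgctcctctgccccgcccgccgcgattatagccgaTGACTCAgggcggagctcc
IER5: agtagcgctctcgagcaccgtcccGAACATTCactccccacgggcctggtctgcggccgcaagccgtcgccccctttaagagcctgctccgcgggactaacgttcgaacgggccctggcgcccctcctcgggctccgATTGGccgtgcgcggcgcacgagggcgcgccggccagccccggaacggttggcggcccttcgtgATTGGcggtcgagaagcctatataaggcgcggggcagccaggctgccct

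KLF6 and RHOB each hold 2 CCAAT boxes (CCAAT, or ATTGG on the other strand), and 32.0% of 35116 promoters hold at least 1. CHAC1 holds the C/EBP-ATF composite TTGCATCA (TGATGCAA on the other strand), found in 0.772% of promoters, beside 3 CCAAT boxes. TNFAIP3 holds 2 NF-kappaB sites, GGAAAGTCCC and GGAAATCCCC, a motif in 5.21% of promoters. BAG3 holds the AP-1 site TGACTCA, a motif (TGANTCA) in 6.57%. IER5 holds the heat shock element core GAACATTC (GAANNTTC, in 5.78%) and 2 CCAAT boxes. A match describes the sequence only, and binding was not measured.

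Immediate early genes as a list were already high in HT and moved little further. Their summed level was 9288, 9526 and 9904 CPM in HT and 9603, 10086 and 10281 CPM in HT + RT, against 1414, 1300 and 1321 CPM in control spheroids. List medians and ranges are given from the unpaired fit. The immediate early list and those below were chosen with earlier results of these data known. Their shares beside those of all genes are therefore a description only. Of 36 genes in the list 35 were tested, with a median log2 fold change of 0.12 (range -0.32 to 1.25) beside 0 for all 16145 genes, and 21 were positive. In the blocked fit 15 rose (KLF6, RHOB, MAFF, CTGF, CSRNP1, TRIB1, ATF3, NR4A1, NR4A2, NR4A3, FOSB, FOSL1, KLF10, CYR61 and SGK1) and 2 fell (IER5 and IER2), beside 0.712% and 0.242% of all genes. The groups did not overlap for 5 higher and 1 lower, beside 3.51% and 4.04%, so that 1 lower of 35 is near the background. Leaving out number 1, 2 or 3 gave medians of 0.11, 0.13 and 0.09, with 15, 7 and 15 rising and 2 falling each time, so that the number of rising genes depended on number 2.

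RHOB (ENSG00000143878) was at 109.7, 95.2 and 102 CPM in HT and at 159, 151 and 148 CPM in HT + RT. All HT + RT values were above all HT values with little spread in either group. Its log2 fold change was 0.58 ± 0.05 with the block (1.49-fold, adjusted p = 9.4e-08, and 0.27 without the block). MAFF, a small MAF transcription factor, was at 169.7, 215 and 349 CPM in HT and at 284, 542 and 494 CPM in HT + RT. Replicate 1 was lowest in both groups, HT replicate 3 was above HT + RT replicate 1, and the groups therefore overlapped. The blocked log2 fold change of MAFF was 0.86 ± 0.08 (adjusted p = 9e-07), with 0.74, 1.33 and 0.5 within the numbers, and DESeq2 with the block did not call it (adjusted p = 0.056). Leaving out single libraries moved the unblocked MAFF value of 0.85 between 0.65 and 1.2.

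Further genes rose as well. CTGF, a secreted matricellular protein gene, was at 5.82, 7.16 and 7.61 CPM in HT and at 8.69, 12.6 and 12.2 CPM in HT + RT, without overlap (blocked 0.7 ± 0.12, adjusted p = 0.0018). CSRNP1, a nuclear protein gene induced by AXIN1, was at 55.9, 64.8 and 88.1 CPM in HT and at 74.6, 123 and 118 CPM in HT + RT, and like CYR61 it was chosen after its values were seen. HT replicate 3 exceeded HT + RT replicate 1, so the groups overlapped, and the blocked value was 0.59 ± 0.07 (adjusted p = 1.7e-05). CYR61, a matricellular relative of CTGF, was at 227, 237 and 254 CPM in HT and at 269, 290.4 and 277 CPM in HT + RT, without overlap. Its blocked value of 0.22 ± 0.04 (adjusted p = 0.0072) lost its call without number 1 (0.21, adjusted p = 0.083). KLF2, a Krüppel-like factor outside the list, was at 13.8, 7.44 and 7.84 CPM in HT and at 17.9, 15.3 and 16.1 CPM in HT + RT. HT replicate 1 was high in its group but under every HT + RT value, and the blocked value of 0.8 ± 0.12 (adjusted p = 0.00041) became 1.04 without number 1 (adjusted p = 3.7e-07).

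IER5 (ENSG00000162783) fell. This immediate early gene, a target of HSF1 and a regulator of it, was at 784, 680.3 and 667 CPM in HT and at 616, 529 and 565 CPM in HT + RT, and was chosen after its values were seen. All HT + RT values lay under all HT values, by -0.35, -0.36 and -0.24 within the numbers. The log2 fold change was -0.32 ± 0.04 with the block (0.803-fold, adjusted p = 6e-05). IER2, a nuclear immediate early protein gene also chosen afterwards, was at 187, 167 and 142 CPM in HT and at 165, 126 and 119 CPM in HT + RT. HT + RT replicate 1 lay above HT replicate 3, so the groups overlapped, while each number fell (-0.18, -0.41 and -0.27). The blocked value was -0.28 ± 0.05 (adjusted p = 0.0019), and the unblocked value ran from -0.44 without HT + RT replicate 1 to -0.18 without HT replicate 1.

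FOS, EGR1 and JUN, which encode the classical immediate early transcription factors, did not pass the test. FOS was at 1889, 1879.7 and 1709 CPM in HT and at 1829.8, 1654 and 1689 CPM in HT + RT, overlapping, with a log2 fold change of -0.08 ± 0.07 (blocked adjusted p = 0.56). EGR1 was at 1731, 1706 and 1640.3 CPM in HT and at 1759, 1559.7 and 1648 CPM in HT + RT, again overlapping (-0.03, blocked adjusted p = 0.89). JUN was at 719, 559 and 497 CPM in HT and at 683, 533 and 479 CPM in HT + RT, high in replicate 1 of both groups and overlapping (-0.06).

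**Figure D3:**
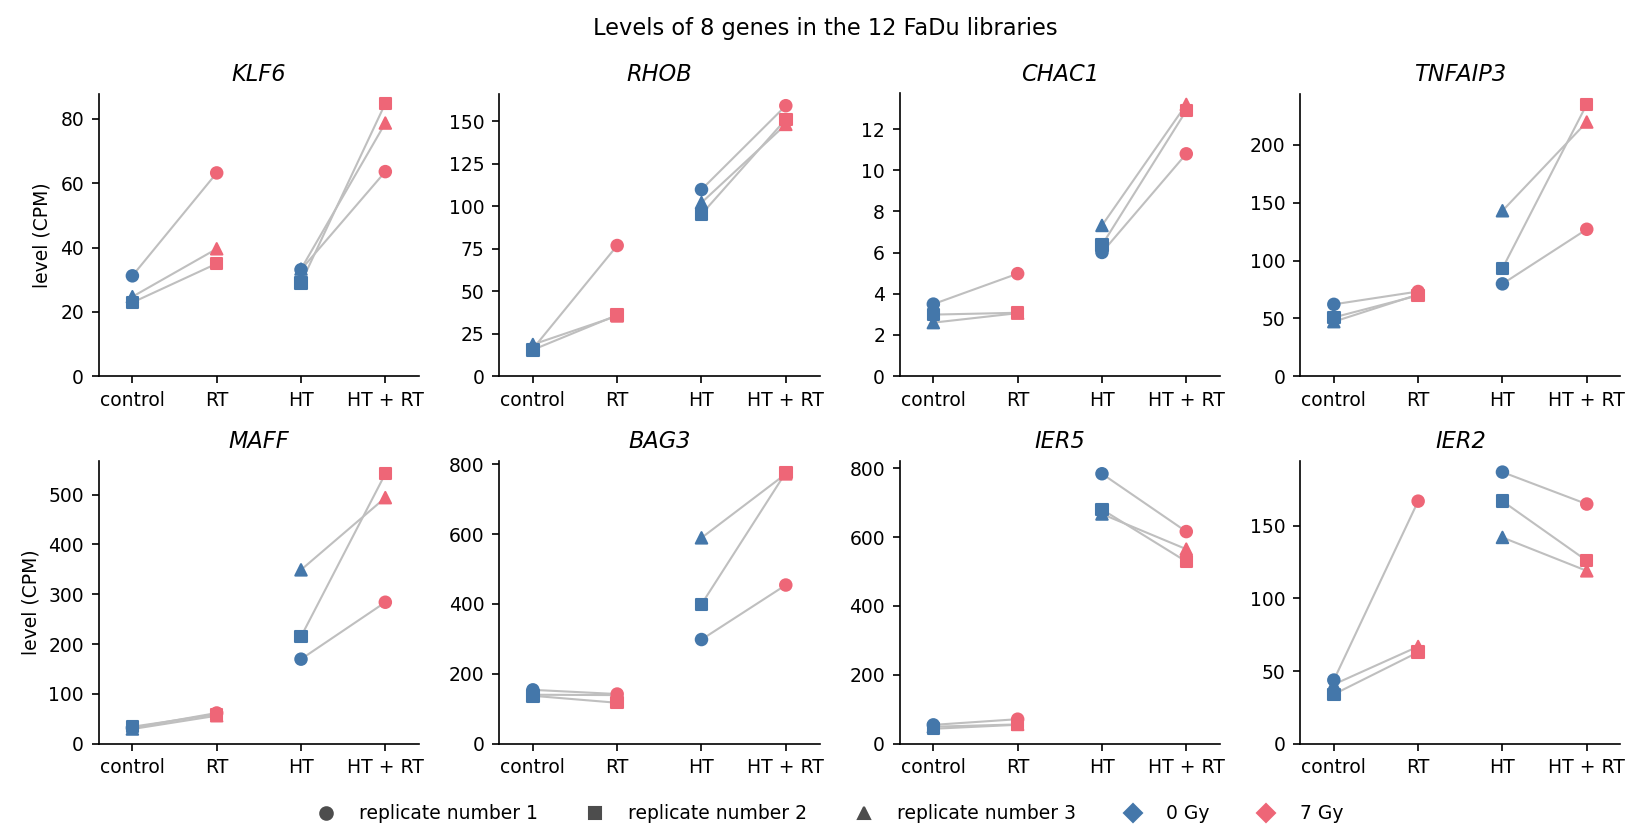
Levels (CPM) of KLF6, RHOB, CHAC1, TNFAIP3, MAFF, BAG3, IER5 and IER2 in 12 FaDu libraries, blue for 0 Gy and red for 7 Gy, with lines joining the same replicate number. With heat, KLF6 rises by 0.94, 1.55 and 1.24 log2 units within the numbers and IER5 falls by 0.35, 0.36 and 0.24.

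Negative feedback genes of MAP kinase signaling summed to 898, 939 and 976 CPM in HT and to 1019, 1092 and 1110.3 CPM in HT + RT. The 17 genes had a median log2 fold change of 0.19 (range -0.53 to 0.79) beside 0 for all genes, 12 were positive, and 3 rose: DUSP1, DUSP5 and DUSP10, all of them phosphatase genes, beside 0.712% of all genes. DUSP1, which dephosphorylates p38, JNK and ERK, was at 325, 375 and 403 CPM in HT and at 406, 457 and 484 CPM in HT + RT. No values overlapped, though HT replicate 3 came within a few CPM of HT + RT replicate 1, and the blocked value was 0.29 ± 0.04 (adjusted p = 0.00017). DUSP5, a nuclear ERK phosphatase, was at 143, 204 and 206 CPM in HT and at 178, 241 and 244 CPM in HT + RT. Replicate 1 was low in both groups and the groups overlapped (0.27, adjusted p = 0.00087). DUSP10, a p38 and JNK phosphatase, was at 5.57, 3.72 and 6.45 CPM in HT and at 10.9, 8.49 and 7.95 CPM in HT + RT, without overlap. Its value of 0.78 ± 0.15 (adjusted p = 0.0067) was 0.68 without number 1, with adjusted p = 0.055. DUSP14, a further MAP kinase phosphatase of the list, did not pass (0.25, adjusted p = 0.15).

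NF-kappaB target genes numbered 31, of which 29 were tested, with a median log2 fold change of 0.14 (range -0.18 to 0.88) and 24 positive, and 7 rose: TNFAIP3, NFKBIA, NFKBIZ, ZC3H12A, CXCL2, CCL20 and IL6, beside 0.712% of all genes. Summed levels were 3111, 3688 and 3758 CPM in HT and 3318, 4165 and 4137 CPM in HT + RT. TNFAIP3 (ENSG00000118503), the A20 gene, was at 79.8, 93.2 and 143 CPM in HT and at 127, 235 and 219.7 CPM in HT + RT. HT replicate 3 lay above HT + RT replicate 1, so the groups overlapped, while all 3 numbers rose (0.67, 1.34 and 0.62). The log2 fold change was 0.88 ± 0.27 without the block (adjusted p = 1) and 0.87 ± 0.08 with it (adjusted p = 5.9e-07). Leaving out single libraries moved the unblocked value between 0.72 and 1.17, and leaving out number 1, 2 or 3 gave blocked values of 0.97, 0.64 and 1.02.

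NFKBIA, the gene of the NF-kappaB inhibitor IkappaB-alpha, was at 176, 182 and 204 CPM in HT and at 199, 275 and 266 CPM in HT + RT. HT + RT replicate 1 was the low value of its group and lay under HT replicate 3 (blocked 0.39 ± 0.05, adjusted p = 0.00021). ZC3H12A, an RNase that degrades cytokine transcripts, was at 96.9, 84.4 and 113 CPM in HT and at 109, 144 and 148 CPM in HT + RT. Here too HT + RT replicate 1 was under HT replicate 3, and the blocked value was 0.44 ± 0.07 (adjusted p = 6e-04). NFKBIZ, a nuclear IkappaB protein gene, was at 62.1, 52.7 and 70.9 CPM in HT and at 66.9, 84.2 and 85.4 CPM in HT + RT, overlapping (0.35 ± 0.07, adjusted p = 0.0099). In all 3 of these genes replicate 1 rose least. Among cytokine genes, CXCL2 was at 7.32, 10.6 and 11.1 CPM in HT and at 11.3, 14.8 and 16.1 CPM in HT + RT, just without overlap (0.54, adjusted p = 0.0056). IL6 was at 26.8, 27.8 and 37 CPM in HT and at 35.6, 39.1 and 46.1 CPM in HT + RT, overlapping (0.4, adjusted p = 0.0013). CCL20, a chemokine gene, had 0.55 (adjusted p = 0.033) and lost its call without number 1 (0.5, adjusted p = 0.097). TNFAIP2, another TNF-induced gene and one of the most abundant of the list, had 0.03 (adjusted p = 0.9).

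Heat shock genes were far above unheated levels in both groups. Their 27 genes summed to 37552, 38064 and 43876 CPM in HT and to 39222, 43844 and 45054 CPM in HT + RT, against 13387, 11379 and 12274 CPM in control spheroids. The median log2 fold change was 0.14 (range -0.03 to 0.64), 25 of 27 were positive, and 6 rose: BAG3, ZFAND2A, FKBP4, HSPH1, SERPINH1 and DNAJA1, beside 0.712% of all genes. BAG3 (ENSG00000151929) was at 298, 399 and 589 CPM in HT and at 454, 776 and 772 CPM in HT + RT. HT replicate 3 exceeded HT + RT replicate 1, so the groups overlapped, and the numbers rose by 0.61, 0.96 and 0.39. Its log2 fold change was 0.64 ± 0.27 without and 0.65 ± 0.06 with the block (adjusted p = 7.4e-07). Single libraries moved the unblocked value between 0.44 and 0.94, and leaving out number 1, 2 or 3 gave 0.68, 0.5 and 0.78.

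ZFAND2A, an arsenite-inducible proteasome-associated protein gene, was at 75.7, 66.7 and 104 CPM in HT and at 119, 122 and 123 CPM in HT + RT. HT replicate 3 was high in its group and still under all HT + RT values (blocked 0.57 ± 0.07, adjusted p = 4.8e-05). HSPH1, an HSP110 chaperone gene, was at 552, 547 and 925 CPM in HT and at 695, 914 and 926 CPM in HT + RT. HT replicate 3 equalled the highest HT + RT value to within 1 CPM, and the blocked value was 0.36 ± 0.07 (adjusted p = 0.01). FKBP4, an HSP90 cochaperone gene, was at 782, 646 and 801 CPM in HT and at 874, 824 and 882 CPM in HT + RT, without overlap (0.22 ± 0.04, adjusted p = 0.0067). DNAJA1, an HSP40 gene, had 0.21 (adjusted p = 0.044) and 0.23 without number 1 (adjusted p = 0.053). SERPINH1, the collagen chaperone gene, had 0.18 (adjusted p = 0.039) and 0.2 without number 1 (adjusted p = 0.16). HSPA1B, an HSP70 gene, was at 6520.3, 7403 and 8176 CPM in HT and at 6498, 7423 and 7671 CPM in HT + RT, overlapping (-0.03, blocked adjusted p = 0.88). HSPA1B shares most of its sequence with HSPA1A, so reads of the 2 copies cannot be assigned with certainty.

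Unfolded protein and integrated stress response genes gave a median of 0.08 over 19 genes (range -0.24 to 0.91), 12 of them positive. Of these 5 rose (CHAC1, DDIT3, HERPUD1, HSPA5 and PPP1R15A) and 1 fell (ATF4), beside 0.712% and 0.242% of all genes, and the groups did not overlap for 5 higher, beside 3.51%. CHAC1 (ENSG00000128965) was at 6.01, 6.37 and 7.32 CPM in HT and at 10.8, 12.9 and 13.2 CPM in HT + RT, from summed counts of 336 and 749. All HT + RT values were above all HT values, by 0.84, 1.02 and 0.85 within the numbers. The log2 fold change was 0.91 ± 0.14 (adjusted p = 0.87 without the block) and ± 0.12 with the block (adjusted p = 6.7e-05).

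HSPA5, the main chaperone gene of the endoplasmic reticulum, was at 772, 609.8 and 618 CPM in HT and at 878, 791 and 753 CPM in HT + RT. HT replicate 1 was the high value of its group and above HT + RT replicate 3, so the groups overlapped (0.28 ± 0.04, adjusted p = 0.00036). HERPUD1, which serves degradation at the endoplasmic reticulum, was at 30.8, 27.1 and 34.9 CPM in HT and at 38, 41.2 and 40 CPM in HT + RT, without overlap (0.36 ± 0.07, adjusted p = 0.011). DDIT3, the CHOP transcription factor gene, was at 18.1, 15.8 and 16.6 CPM in HT and at 23.5, 21.2 and 20.4 CPM in HT + RT. Its groups did not overlap, and its value of 0.36 ± 0.08 (adjusted p = 0.034) lost its call without number 1 (0.35, adjusted p = 0.15). PPP1R15A, which restores translation by dephosphorylating eIF2-alpha, was at 284, 287 and 259.8 CPM in HT and at 316, 330.2 and 304 CPM in HT + RT. It did not overlap either, with 0.2 ± 0.04 (adjusted p = 0.014) and 0.22 without number 1 (adjusted p = 0.058). ATF4, the transcription factor of the integrated stress response, was at 556, 507 and 444 CPM in HT and at 451, 421 and 404 CPM in HT + RT, and was chosen after its values were seen. HT replicate 3 lay just under HT + RT replicate 1, and the blocked value of -0.23 ± 0.04 (adjusted p = 0.0031) was -0.2 without number 1 (adjusted p = 0.11). HSP90B1, a further endoplasmic reticulum chaperone gene, did not pass (-0.01, adjusted p = 0.97).

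p53 target genes had a median log2 fold change of -0.01 over 30 genes (range -0.31 to 0.44), with 13 positive and 2 rising, beside 0.712% of all genes. CDKN1A, the p21 gene, was at 121, 134 and 133 CPM in HT and at 139, 163 and 165 CPM in HT + RT. All HT + RT values were above all HT values, replicate 1 being lowest in both groups (blocked 0.27 ± 0.05, adjusted p = 0.0018). PLK2, a stress-induced polo-like kinase gene, was at 21.8, 18.4 and 25.6 CPM in HT and at 29.1, 31.3 and 28.7 CPM in HT + RT, without overlap (0.43 ± 0.09, adjusted p = 0.011). PLK3, a related kinase gene, was at 18.8, 10.7 and 13.1 CPM in HT and at 18.9, 15.8 and 18.2 CPM in HT + RT. HT replicate 1 was as high as the HT + RT group, and PLK3 did not pass (0.34, adjusted p = 0.17). MDM2, the p53 ubiquitin ligase gene, was at 53.2, 69.4 and 67.8 CPM in HT and at 53.7, 70.6 and 68 CPM in HT + RT, nearly equal within each number (0.02, adjusted p = 0.97). GADD45A, a growth arrest gene, was at 37.4, 22.8 and 29.2 CPM in HT and at 34.9, 34.9 and 34.9 CPM in HT + RT, with HT replicate 1 the highest of all 6 (0.25, adjusted p = 0.3). Without number 1 GADD45A passed, at 0.43 (adjusted p = 0.0052).

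Over 37 genes of double-strand break signaling and repair the median log2 fold change was 0.01 (range -0.22 to 0.19), with 21 positive, and 0 of 37 passed edgeR's test with the block. Over all genes 0.954% passed, so a count of 0 in a list of this length is near the background. None had an unadjusted p under 0.05 without the block, and DESeq2 with the block called none. TOPBP1, an ATR activator gene, was at 171, 172 and 172 CPM in HT and at 192, 178 and 181 CPM in HT + RT, without overlap but by a small step (0.1, adjusted p = 0.52). XRCC4, a ligase partner in end joining, was at 23.8, 21.2 and 23.7 CPM in HT and at 20.5, 20.7 and 20 CPM in HT + RT, again without overlap (-0.17, adjusted p = 0.56). XRCC6, the Ku70 gene, was at 1431, 1343 and 1259 CPM in HT and at 1399, 1316 and 1302 CPM in HT + RT, overlapping (0, adjusted p = 0.99). DCLRE1C, the Artemis nuclease gene, had the highest value of the list at 0.19 (adjusted p = 0.72).

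G2/M and mitotic genes had a median of 0.01 over 26 genes (range -0.13 to 0.12), with 15 positive. edgeR called 0 of 26 with the block, near the 0.954% of all genes, none had an unadjusted p under 0.05 without it, and DESeq2 with the block called none. TOP2A, the topoisomerase gene of dividing cells, was at 392, 366 and 397 CPM in HT and at 405, 373 and 395 CPM in HT + RT, overlapping (0.02, adjusted p = 0.92). The 3 genes with the smallest p were the mitotic kinesin gene KIF20A (0.12, adjusted p = 0.51), the phosphatase gene CDC25B (0.09, adjusted p = 0.57) and the securin gene PTTG1 (-0.11, adjusted p = 0.57).

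Hypoxia genes had a median of -0.03 over 18 genes (range -0.14 to 0.09), with 7 positive. edgeR called 0 of 18 with the block, again near the 0.954% of all genes, none had an unadjusted p under 0.05 without it, and DESeq2 with the block called none. SLC2A1, a glucose transporter gene, was at 1056, 769.8 and 724 CPM in HT and at 979, 736 and 786 CPM in HT + RT, high in replicate 1 of both groups and overlapping (-0.02, adjusted p = 0.95). PDK1, which inhibits pyruvate dehydrogenase, had -0.14 (adjusted p = 0.8), the collagen crosslinking gene LOX had -0.08 (adjusted p = 0.89), and the mitophagy receptor gene BNIP3L had 0.06 (adjusted p = 0.82).

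Mitochondrially encoded transcripts were higher in HT + RT within each replicate number. They made up 2.82%, 2.07% and 1.89% of counts in HT and 3.26%, 2.51% and 2.1% in HT + RT, so that replicate 1 was high in both groups and the groups overlapped. The 13 protein-coding transcripts had a median log2 fold change of 0.2 (range 0.03 to 0.45), all 13 were positive, and 10 rose, beside 0.712% of all genes. This median depended on single libraries without the block: leaving out replicate 1 or 3 of HT + RT gave -0.04 and 0.35, and leaving out replicate 1 or 3 of HT gave 0.43 and 0.07. MT-ND1, a subunit gene of respiratory complex I, was at 1639, 1081 and 982 CPM in HT and at 2243, 1535 and 1290.5 CPM in HT + RT. HT replicate 1 lay above HT + RT replicates 2 and 3, while the numbers rose by 0.45, 0.51 and 0.39 (blocked 0.45 ± 0.04, adjusted p = 9.4e-08). Unblocked, MT-ND1 moved to 0.19 when HT + RT replicate 1 was left out and to 0.72 when HT replicate 1 was. MT-CO1, a cytochrome oxidase subunit gene, was at 5439.5, 4586 and 4146 CPM in HT and at 5966, 5431 and 4839.7 CPM in HT + RT, overlapping in the same way (0.2 ± 0.04, adjusted p = 0.002). Without number 1 the calls of MT-ATP6, MT-ND4L, MT-CO3, MT-ND6, MT-ND4 and MT-CYB were lost, with adjusted p = 0.22, 0.12, 0.16, 0.076, 0.27 and 0.38. MT-ND3, MT-ATP8 and MT-ND5 did not pass (0.03, 0.12 and 0.19).

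Mitochondrial tRNAs were added to the description after their values were seen. Of 22 genes 19 were tested, with a median log2 fold change of -0.15 (range -0.96 to 1.42), 9 positive and 4 rising, beside 0.712% of all genes. The groups did not overlap for 5 genes higher and 5 lower, beside 3.51% and 4.04% of all genes, the 5 lower being MT-TR (-0.96), MT-TW (-0.88), MT-TH (-0.5), MT-TG (-0.44) and MT-TL2 (-0.41), with blocked adjusted p = 0.57, 0.39, 0.27, 0.3 and 0.073. MT-TT (ENSG00000210195), the threonine tRNA gene, was at 3.88, 3.89 and 2.88 CPM in HT and at 6.79, 7.75 and 13.5 CPM in HT + RT, from summed counts of 181 and 614. HT + RT replicate 3 was far the highest and HT replicate 3 the lowest, and the groups did not overlap (0.81, 0.99 and 2.22 within the numbers). The blocked value was 1.39 ± 0.19 (adjusted p = 0.00016), the unblocked 1.42 ± 0.28, and without HT + RT replicate 3 the latter was 1.03. MT-TT was not among the altered genes with the block when number 3 was left out, nor by DESeq2 with the block. MT-TY, the tyrosine tRNA gene, was at 36.5, 29.7 and 30.2 CPM in HT and at 47.1, 46.6 and 48.4 CPM in HT + RT, without overlap (0.57 ± 0.07, adjusted p = 3.2e-05). MT-TC, the cysteine tRNA gene, was at 43.7, 36.8 and 39.9 CPM in HT and at 48.3, 54.2 and 64.8 CPM in HT + RT, also without overlap (0.48, adjusted p = 0.00079). MT-TP, the proline tRNA gene, was at 47.2, 46.2 and 39.4 CPM in HT and at 60.9, 56 and 49.3 CPM in HT + RT, without overlap (0.32, adjusted p = 0.0031). The 4 that rose did so in each number, and MT-TT stands on far fewer counts than the others. The pseudogene MTATP6P1, nearly identical to mitochondrial DNA, rose as well (0.66, adjusted p = 6.9e-07), and its reads cannot be told from mitochondrial ones.

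Ribosomal protein genes, likewise chosen after their values were seen, are given last among the lists. Of 86 genes 83 were tested, with a median log2 fold change of -0.11 (range -0.55 to 0.08) beside 0 for all genes, and only 1 was positive. In 28 the HT + RT values lay wholly under the HT values, and 10 fell, RPL39, RPS28 and RPS21 among them, beside 4.04% and 0.242% of all genes. RPL39 was at 696, 706 and 632 CPM in HT and at 601, 614 and 387 CPM in HT + RT, with HT + RT replicate 3 far the lowest and no overlap (-0.37 ± 0.06, adjusted p = 0.0013). RPS28 was at 529, 532 and 466 CPM in HT and at 462, 419.5 and 420.5 CPM in HT + RT, without overlap (-0.23, adjusted p = 0.0051). Without number 1 both kept their calls, RPL39 at -0.45 (adjusted p = 1.2e-05) and RPS28 at -0.24 (adjusted p = 0.024). Within the numbers RPL39 differed by -0.21, -0.2 and -0.71, by far the most in number 3, so its size depends on that number. RPS21 was at 713, 663 and 657 CPM in HT and at 568, 558 and 608 CPM in HT + RT, without overlap (-0.23, adjusted p = 0.005), and lost its call without number 1 (-0.18, adjusted p = 0.24). RPS29, RPL28 and RPS14 are further examples that lost theirs (adjusted p = 0.32, 0.054 and 0.44).

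**Figure D4:**
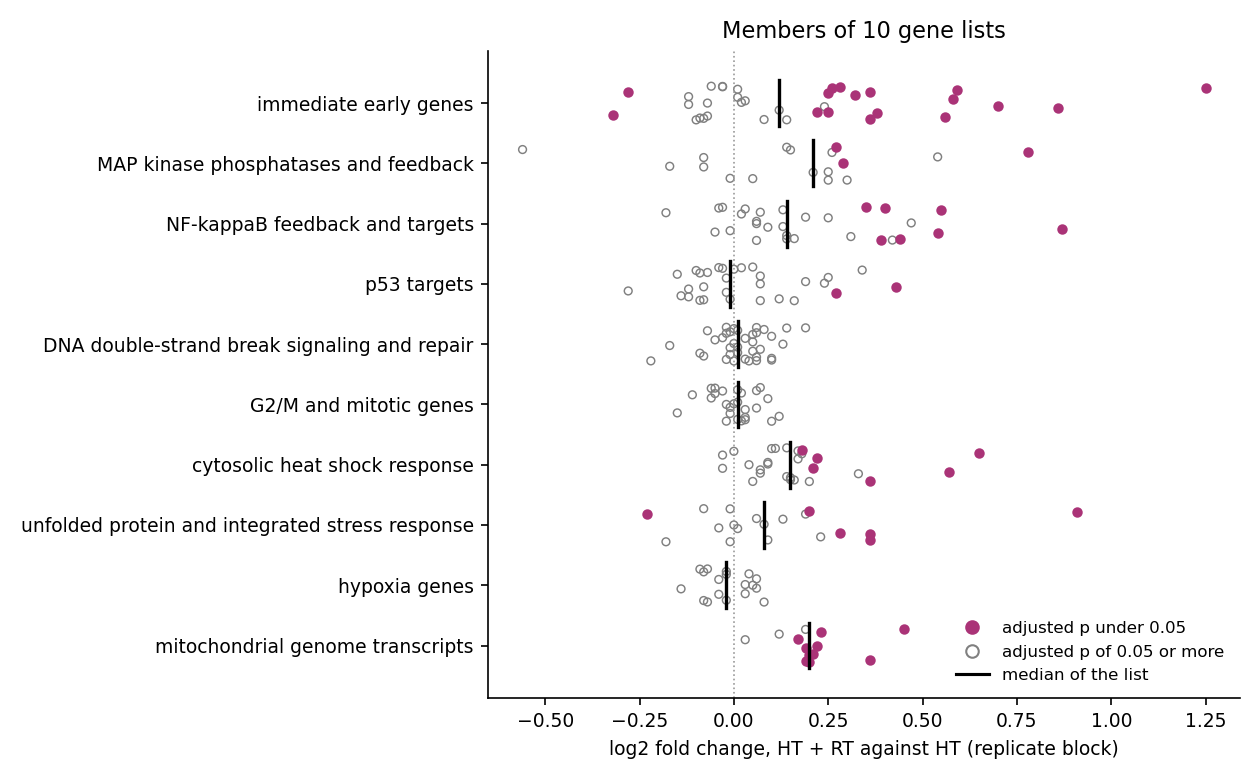
Log2 fold change (HT + RT over HT, replicate block) of the tested members of 10 gene lists, filled where adjusted p is under 0.05, with a bar at the median. Medians run from -0.02 for hypoxia genes to 0.21 for negative feedback genes of MAP kinase signaling.

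Several genes outside the lists were among the 10 with the smallest p or the largest difference. F2RL1, a protease-activated receptor gene, was at 38.6, 66.4 and 76.5 CPM in HT and at 55.5, 110 and 99.4 CPM in HT + RT, low in replicate 1 of both groups and overlapping (blocked 0.54 ± 0.06, adjusted p = 7.9e-06). SERTAD3, a transcriptional coactivator gene, was at 66.3, 58.7 and 72.1 CPM in HT and at 85.2, 88.3 and 88.9 CPM in HT + RT, without overlap (0.41, adjusted p = 0.00016). CDC42EP3, a CDC42 effector gene, was at 16.2, 13.4 and 15.6 CPM in HT and at 23.3, 22.5 and 21.4 CPM in HT + RT, without overlap (0.57 ± 0.09, adjusted p = 0.00063). These 3 genes rose in every number, F2RL1 from a replicate 1 that was low in both groups. CDC42EP4, of the CDC42EP3 family, was at 44.7, 42.4 and 37.3 CPM in HT and at 55.9, 54 and 53.5 CPM in HT + RT, without overlap (0.4, adjusted p = 0.00055). C15orf39, of unknown function, was at 21, 23.3 and 22.6 CPM in HT and at 29.6, 32.6 and 32.2 CPM in HT + RT, without overlap (0.5 ± 0.07, adjusted p = 0.00036). AL118506.1 was at 31.5, 32.3 and 42.2 CPM in HT and at 49.1, 57.8 and 60.1 CPM in HT + RT, without overlap (0.66 ± 0.07, adjusted p = 1.5e-06), but it overlaps another gene and its reads are uncertain in origin.

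At low levels, named genes had larger and less certain differences. The genes here and the lowest ones in the next paragraph were picked for large differences without overlap. Neither trait is therefore a separate result. MN1, a transcriptional coregulator gene, was at 1.19, 1.41 and 1.44 CPM in HT and at 2.02, 3.44 and 2.81 CPM in HT + RT, without overlap (1.02, blocked adjusted p = 0.055). NOD2, an intracellular receptor of bacterial wall fragments, was at 1.13, 1.47 and 2.54 CPM in HT and at 2.63, 3.3 and 3.12 CPM in HT + RT, without overlap (0.82, adjusted p = 0.17, and 1.19 with adjusted p = 0.024 when number 3 was left out). In both genes HT + RT replicate 1 was the lowest of its group. AATK, a kinase gene of apoptosis, was at 4.32, 3.33 and 4.03 CPM in HT and at 5.08, 8.15 and 6.18 CPM in HT + RT, without overlap (0.72, adjusted p = 0.052). The zinc finger gene DZIP1L (0.74, adjusted p = 0.17) and the secreted protein gene C1QTNF1 (0.73, adjusted p = 0.3) also had high values without passing.

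On the lower side, AC105339.2 (ENSG00000252690), a processed transcript of unknown function, was at 2.94, 2.31 and 3.92 CPM in HT and at 1.35, 1.01 and 1.42 CPM in HT + RT, from summed counts of 156 and 78. All HT + RT values were under all HT values, by -1.13, -1.19 and -1.46 (blocked -1.28 ± 0.25, adjusted p = 0.0063, and 1 without the block). It was not among the altered genes by DESeq2 with or without the block, nor with the 4 FaDu groups in 1 fit. The read-through transcript HNRNPUL2-BSCL2, which shares exons with 2 genes and is uncertain, was at 4.82, 3.1 and 3.4 CPM in HT and at 2.69, 1.62 and 1.91 CPM in HT + RT (-0.86, adjusted p = 0.049, and 0.26 without number 1). Other low-level genes with the lowest values did not pass: the ciliary gene CCDC28B (-0.65, adjusted p = 0.21), the myosin gene MYO1F (-0.66, adjusted p = 0.39), the testis kinase gene TSSK6 (-0.64, adjusted p = 0.41), its relative the pseudogene TSSK5P (-0.66, adjusted p = 0.32) and the noncoding transcripts AC004854.2 (-0.66, adjusted p = 0.3), AC105339.3 (-0.65, adjusted p = 0.41), AL450405.1 (-0.65, adjusted p = 0.36) and AC015813.5 (-0.63, adjusted p = 0.31).

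A few abundant transcripts that fell were picked after their values were seen. NEAT1, the architectural RNA of paraspeckles, was at 1439, 1109 and 1460.3 CPM in HT and at 1145, 1001 and 983 CPM in HT + RT, with HT replicate 2 under HT + RT replicate 1 (-0.35 ± 0.05, adjusted p = 0.00036). MIF, a cytokine gene, was at 86.3, 75.5 and 67.1 CPM in HT and at 70.9, 58.9 and 53.4 CPM in HT + RT, with a small overlap (-0.32, adjusted p = 0.0011). RN7SL2, an RNA of the signal recognition particle, was at 56.1, 72 and 61.3 CPM in HT and at 47.8, 45.1 and 49.5 CPM in HT + RT, without overlap (-0.4, adjusted p = 0.0018).

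Unheated FaDu spheroids given the same 7 Gy responded partly in other genes. RT against control altered 1 of 15552 genes without the block (0.00643%) and 28 with it (0.18%), and by adjusted p alone 207 were higher (1.33%) and 105 lower (0.675%). Of the genes that rose in heated spheroids 39 also rose in unheated ones, 33.9% of the heated and 18.8% of the unheated genes, and 1 fell in both (2.56% and 0.952%). In 7 genes the effect was higher with and lower without heat (6.09% and 6.67%), and in 2 lower with and higher without (5.13% and 0.966%). Across 15215 genes the correlation of the 2 log2 fold changes, which share no libraries, was 0.07. Of 22 genes altered upward by RT alone and tested in heated spheroids, with a median of 1.28 there, the heated median was 0.12, 13 were positive, 11 rose and 1 fell. Over all genes in heated spheroids 0.712% rose and 0.242% fell. These 22 were chosen for their unheated fold change, which by itself makes that median the higher one, so the 2 medians are a description only.

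The difference between both effects was tested directly. edgeR called 0 of 16793 genes without a block (0%), with 541 at an unadjusted p under 0.05 and 1 altered by DESeq2, and 2 with the number as a block (0.0119%). With the number as a block within each heat state, a fit chosen after the data were seen, 19 genes were altered (0.113%), and by adjusted p 42 had a higher radiation effect in heated spheroids (0.25%) and 64 a lower one (0.381%). Leaving out number 1, 2 or 3 gave 64, 34 and 64 genes by adjusted p in place of 106. Of the 42 higher effects 29, 5 and 26 kept their call, and of the 64 lower ones 27, 28 and 30. These counts depended on the choice of block and on single experiments. Differences and their adjusted p for single genes come from the block within each heat state unless the common block, with 1 block per number across both heat states, is named.

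Of 35 immediate early genes, a list chosen with earlier results known, 19 were among the 64 lower effects, beside 0.381% of all genes. With the common block 3 of them, CYR61, IER2 and IER5, were among the 8 lower effects, beside 0.0476% of all genes. In unheated spheroids the list had a median of 0.87 and 29 of 34 rose, beside 1.33% of all genes. The median was 0.12 with heat, and the median difference was -0.72. Without number 1 the unheated median was 0.65 with 24 rising, and leaving out number 1, 2 or 3 gave 11, 13 and 15 lower differences in place of 19. FOS was at 16.7, 17.8 and 20.1 CPM in control and at 195, 30.9 and 34.8 CPM in RT, with RT replicate 1 far above the rest. The difference was -1.88 ± 0.35 (adjusted p = 0.0087), and -0.88 without number 1 (adjusted p = 1.2e-05), and with the common block it did not pass (adjusted p = 0.34). EGR1 was at 100.1, 93.2 and 104 CPM in control and at 804, 208 and 243 CPM in RT, again highest in RT replicate 1 and without overlap. Its difference was -1.83 (adjusted p = 0.00043), and -1.24 without number 1 (adjusted p = 3.9e-09), and it did not pass with the common block either (adjusted p = 0.096).

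RHOB was at 16.1, 15.5 and 18.6 CPM in control and at 76.8, 35.9 and 35.4 CPM in RT, without overlap and highest in RT replicate 1. Radiation raised it by 1.46 ± 0.13 there, and the difference of -0.89 ± 0.17 (adjusted p = 0.011) was -0.45 without number 1, with adjusted p = 0.1, and had adjusted p = 0.3 with the common block. CYR61 was at 21.5, 18.7 and 17.1 CPM in control and at 59.1, 40.7 and 40.8 CPM in RT, without overlap. Its effect was 1.28 ± 0.08 without heat and its difference -1.06 ± 0.08 (adjusted p = 8.7e-08, and 0.0068 with the common block). IER5 was at 54.6, 43.3 and 49.2 CPM in control and at 71.1, 54.9 and 55.9 CPM in RT, just without overlap. It rose by 0.3 ± 0.06 without heat (adjusted p = 0.0044), a call lost without number 1 (0.26, adjusted p = 0.064), and fell with heat. The difference was -0.62 ± 0.07 (adjusted p = 3e-05, and 0.0022 with the common block). IER2 was at 43.8, 34 and 40.8 CPM in control and at 167, 63 and 66.9 CPM in RT, without overlap and highest in RT replicate 1. The rise of 1.19 (0.8 without number 1) against a fall with heat made a difference of -1.48 ± 0.17 (adjusted p = 4.8e-05, and 0.02 with the common block), and -1.12 without number 1 (adjusted p = 5.6e-07).

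**Figure D5:**
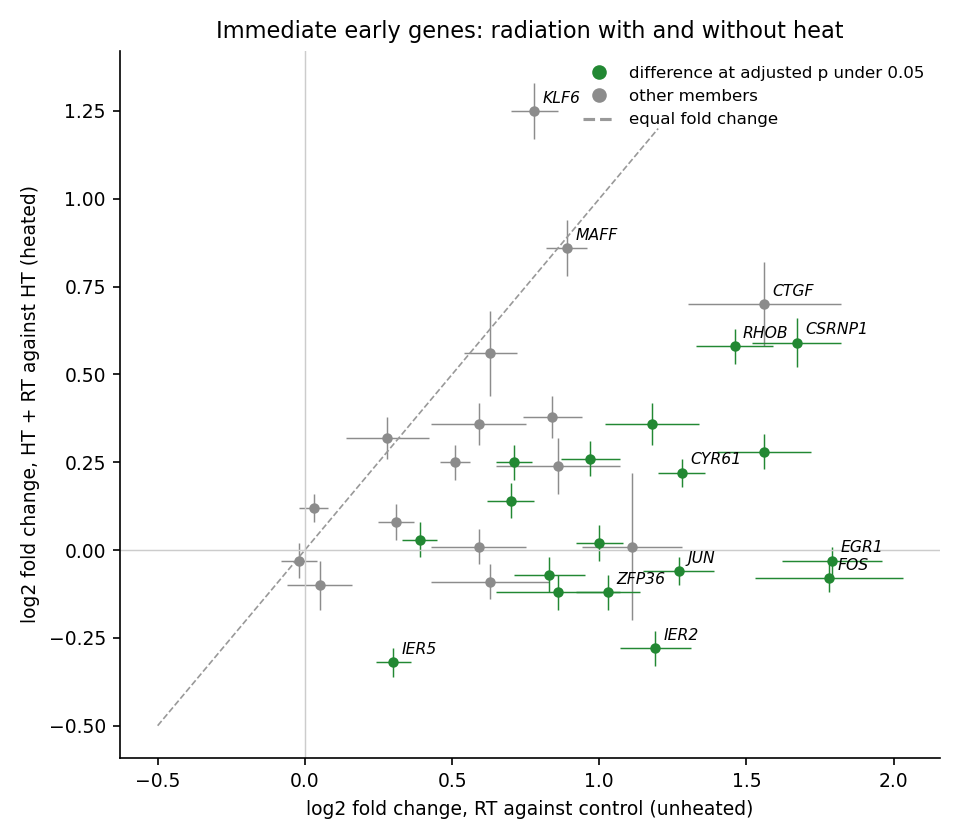
Radiation effect (log2, replicate block, ± standard error) on 34 immediate early genes in heated against unheated FaDu spheroids, dashed line where equal. Green marks 18 genes whose difference has adjusted p under 0.05 with the block within each heat state, RHOB among them at -0.89.

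KLF6 was at 31.2, 22.9 and 24.7 CPM in control and at 63.2, 35 and 39.6 CPM in RT, without overlap and highest in RT replicate 1. Its effect without heat was 0.78 ± 0.08 (adjusted p = 2e-08), and the difference of 0.47 ± 0.12 did not pass (adjusted p = 0.11) except without number 1 (0.75, adjusted p = 0.0025). MAFF was at 31.8, 34 and 29.4 CPM in control and at 61.6, 59 and 56.1 CPM in RT, without overlap. Its effects were alike on the log2 scale, 0.89 without heat and 0.86 with heat, from very different starting levels. TNFAIP3 was at 62.1, 50.8 and 47.1 CPM in control and at 73.2, 69.8 and 70.6 CPM in RT, without overlap (0.42, adjusted p = 6e-05). Its difference of 0.45 did not pass (adjusted p = 0.18). BAG3 was at 154, 137 and 140 CPM in control and at 142, 117 and 139 CPM in RT, overlapping (-0.12, adjusted p = 0.39). Its radiation effect differed by 0.77 ± 0.1 (adjusted p = 1e-04), and by 0.8 without number 1 (adjusted p = 0.0017), but it did not pass with the common block (adjusted p = 0.5). The step of BAG3 with heat was largest in number 2 (0.96), without which 5 of the 42 higher effects over all genes kept their call. CHAC1 was at 3.5, 2.99 and 2.6 CPM in control and at 4.98, 3.08 and 3.06 CPM in RT, overlapping (0.27, adjusted p = 0.69), and its difference of 0.63 did not pass (adjusted p = 0.28).

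Heat shock genes had a median effect of -0.09 without heat, with 5 of 27 falling, beside 0.675% of all genes, and none rising. With the block within each heat state 6 had a higher effect with heat, beside 0.25% of all genes, and with the common block none did. Without number 2, 5 of the 42 higher effects over all genes kept their call, so the 6 cannot all have kept theirs. In mitochondrially encoded transcripts the unheated median was -0.19 with 4 of 13 falling, beside 0.675% of all genes. With the block within each heat state 8 had a higher effect with heat, beside 0.25% of all genes, MT-ND4 by 0.55 (adjusted p = 0.00053) and MT-ND1 by 0.39 (adjusted p = 0.0075). These 8 cannot all have kept their calls without number 2 either, where 5 higher effects remained over all genes. With the common block none of the 8 passed, MT-ND4 having adjusted p = 0.65 and MT-ND1 0.86. NFKBIZ rose by 1.17 without heat (adjusted p = 1.1e-12), and its difference was -0.82 (adjusted p = 0.00033, and 0.066 with the common block). DUSP1 was at 12.6, 12.7 and 15.9 CPM in control and at 103, 26.8 and 33.2 CPM in RT, without overlap and highest in RT replicate 1. The difference for DUSP1 was -1.49 (adjusted p = 0.0026), and -0.78 without number 1 (adjusted p = 7e-05), and it did not pass with the common block (adjusted p = 0.37). All these differences are on the log2 scale. In mean CPM, RHOB went from 16.8 to 49.3 without heat and from 102 to 153 with heat, and DUSP1 from 13.7 to 54.2 and from 368 to 449, so that their steps in CPM were the larger ones with heat. For FOS (18.2 to 86.7, with heat 1826 to 1725), EGR1 (99.2 to 418, with heat 1692 to 1656) and JUN (58.5 to 162, with heat 591 to 565) the step was upward without heat only. The RT means of these genes lean on RT replicate 1. JUN was at 71.4, 50.7 and 53.5 CPM in control and at 300, 90 and 97.3 CPM in RT.

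Heated SAS spheroids with 10 Gy shared part of the upward changes. HT + RT against HT altered 0 of 15341 genes without the block (0%), with 673 at an unadjusted p under 0.05 and 5 altered by DESeq2. With the block 127 were higher (0.828%) and 12 lower (0.0782%) by adjusted p. Of these 32 rose in both lines, 27.8% of the FaDu and 25.2% of the SAS genes, and 0 fell in both (0% and 0%). Across 14039 genes the correlation of the log2 fold changes was 0.06. CHAC1 rose in SAS from 2.98, 5.89 and 4.26 CPM to 8.32, 12.4 and 10.1 CPM, without overlap (1.23 ± 0.13, adjusted p = 0.00019). RHOB rose in SAS from 35.5, 46.4 and 53.3 CPM to 55.9, 68 and 73 CPM, without overlap (0.55, adjusted p = 7.4e-05). KLF6 rose in SAS from 42.2, 48.6 and 31.8 CPM to 53.2, 60 and 39.6 CPM, low in replicate 3 of both groups and overlapping (0.32, adjusted p = 0.0067).

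Tests of the FaDu effect minus the SAS effect called 0 of 17560 genes altered (0%), with 509 at an unadjusted p under 0.05, 0 by DESeq2, and 20 with the block by adjusted p alone (0.114%). KLF6 was among the 20, higher in FaDu by 0.93 ± 0.1 (adjusted p = 4.8e-05). BAG3 rose in FaDu and not in SAS, where it was at 1199.8, 1336 and 1432 CPM in HT and at 1374, 1438 and 1499 CPM in HT + RT, overlapping (0.12, adjusted p = 0.13), a difference of 0.53 (adjusted p = 0.0047). IER5 did not move in SAS, at 1715, 1566 and 1593 CPM in HT and at 1754, 1530 and 1588 CPM in HT + RT, overlapping, with a difference between lines of -0.31 (adjusted p = 0.0099). IER2 differed by -0.38 (adjusted p = 0.025), DUSP5 by 0.4 (adjusted p = 0.0018) and F2RL1 by 0.41 (adjusted p = 0.026). Line and dose change together here, so their parts in these differences cannot be told apart.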

How the data were processed

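RNA of FaDu and SAS spheroids was sequenced from directional libraries, and the authors deposited tables of read counts per gene. The study names bcl2fastq for converting the raw data and DESeq2 for differential expression. The aligner and the strand setting of counting are not given in the sources used here. In all, 21 libraries were read from 5 files, with 9 of 9 repeated columns identical, over 57500 genes, of which 56898 were found by identifier in GENCODE 29.

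Counts were analysed in R 4.3.3 with edgeR 4.0.16 (filterByExpr with a count minimum of 10, TMM, quasi-likelihood F test, Benjamini-Hochberg adjustment), DESeq2 1.42.0 and limma 3.58.1. A gene counted as altered when its adjusted p was under 0.05 and its level differed more than 2-fold. The study states 3 independent experiments, and whether equal numbers pair libraries was checked: residuals of HT + RT and HT correlated by 0.57, 0.24 and 0.34 for equal numbers and by -0.46 to 0.31 for unequal ones, so a fit with the number as a block was run beside the unpaired one. Alternatives were other tools, scalings and filters, thinned counts and leaving out each library or number.

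Named genes were those altered, the 10 highest and 10 lowest without overlap (unadjusted p under 0.05, average log2 CPM of at least 1), the 10 smallest p with and without the block, the 3 smallest p and the most abundant of each of 10 lists, and NFKBIZ, altered by RT alone. Others named, such as IER5, IER2, ATF4, CSRNP1, CYR61, EGR1, JUN, HSPA5, MDM2 and IL6, were chosen after their values were seen. Members and lists were chosen with earlier results of these data known. With 3 libraries per group and 4.6% biological variation under the block, small steps pass where experiments move together.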

Additional observations from a re-analysis of the deposited data

Results flagged for a closer look

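In 21 instances, covering 19 genes, the radiation effect differed between heated and unheated FaDu spheroids by edgeR's test of the difference (adjusted p under 0.05, absolute log2 difference over 1). Negative values mean a smaller or opposite effect with heat on the log2 scale. With the replicate number as a block 2 genes passed, CYR61 at -1.07 and IER2 at -1.51. The other fit, with the number as a block within each heat state, was added after the data were seen and gave 19 genes.

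Of these, 10 were immediate early genes or MAP kinase feedback genes that rose with RT alone: CYR61 (-1.06), IER2 (-1.48), JUN (-1.35), ZFP36 (-1.16), EGR1 (-1.83), FOSB (-1.28), DUSP1 (-1.49), DUSP2 (-1.19), CSRNP1 (-1.09) and FOS (-1.88). RT replicate 1 was high for most of them. Without number 1 the values were -0.97 for CYR61, -1.12 for IER2, -0.89 for JUN, -0.92 for ZFP36, -1.24 for EGR1, -0.82 for FOSB, -0.78 for DUSP1, -0.73 for DUSP2, -0.66 for CSRNP1 and -0.88 for FOS. CSRNP1 and DUSP2 lost their calls (adjusted p = 0.18 and 0.37), and the adjusted p of the other 8 lay between 3.9e-09 and 0.0026.

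SOCS3, a cytokine signaling inhibitor gene, differed by -1.16 (-0.76 without number 1, adjusted p = 3.4e-05). MUC16, a mucin gene, differed by -1.09 (-1.12, adjusted p = 0.02). Higher effects with heat were found for the splicing kinase gene CLK1 at 1.11 (1.2, adjusted p = 0.0045), the pseudogene MTATP6P1 at 1 (1.18, adjusted p = 4.1e-05), whose reads cannot be told from mitochondrial ones, and the zinc finger gene ZNF555 at 1.18 (1.33, adjusted p = 0.079). Over all genes, 5 of the 42 higher effects by adjusted p kept their call when number 2 was left out.

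Others were noncoding or scarce: AC027290.2 at -1.67 (-1.35, adjusted p = 0.28), AC010168.2 at -1.35 (-1.33, adjusted p = 0.12), AL139407.1 at -3.23 (-3.26, adjusted p = 0.1) and the neuronal immediate early gene ARC at -2.33 (-2.68, adjusted p = 0.15). AL139407.1 was scarce in every FaDu group, with mean CPM from 0.213 in HT + RT to 0.846 in RT. ARC was scarce without heat, at 0.0997 in control and 0.502 in RT. How far their fitted values depend on the prior count was not tested. Values in brackets are those without number 1. Explanations were not tested.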

How the results depend on the processing

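Alternatives added after seeing the data are the nested block, DESeq2 with the block, RLE scaling and thinned counts with the block, number 1 left out without the block, and, outside HT + RT against HT in FaDu, adjusted p alone with the block and numbers left out. For HT + RT against HT in FaDu, 0 genes were altered as designed. DESeq2 gave 2, no filter 3, the block 3, the 4 FaDu groups in 1 fit with the block 2, limma voom 1 and DESeq2 with the block 1. The block with number 1, 2 or 3 left out gave 4, 3 and 11, and number 1 left out without the block 3. By adjusted p alone the block gave 154, with RLE scaling 154, with thinned counts 172 and with DESeq2 75. Leaving out 1 library gave 0 to 1. Of the 154 genes, 154 were called with RLE scaling, 147 with thinned counts, 75 by DESeq2 with the block, 10 with the 4 FaDu groups in 1 fit and 7 by DESeq2 without the block.

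For RT against control 1 gene was altered as designed, 11 by DESeq2, 28 without a filter, 28 with the block, 5 by adjusted p alone and 312 with both. Leaving out number 1, 2 or 3 with the block gave 19, 40 and 42, and leaving out 1 library 0 to 8. For the difference between heated and unheated spheroids 0 were altered as designed, 1 by DESeq2, 18 without a filter, 2 with the block (10 by adjusted p, 7 altered without number 1), 19 with the nested block and 106 with it by adjusted p, where leaving out number 1, 2 or 3 gave 64, 34 and 64. Leaving out 1 library gave 0 to 1. For SAS 0 were altered as designed, 5 by DESeq2, 7 without a filter, 7 with the block, 139 with the block by adjusted p and 0 to 1 with 1 library left out. For FaDu minus SAS 0 became 20 with the block by adjusted p. Beyond the calls given here and in the report, pairing changed no call, and the cause was not tested.

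No gene passed as designed, so the 650 alternatives for 65 named genes say little on calls: 6 crossed the threshold (KLF6, MT-TT and AC105339.2) and 17 reversed in sign, over 7 genes near 0 and each time with 1 library left out. Their values as designed and their ranges were TNFAIP2 0.02 (-0.12 to 0.16), XRCC6 0 (-0.05 to 0.04), TOP2A 0.02 (-0.01 to 0.06), HSPA1B -0.03 (-0.11 to 0.05), HSP90B1 -0.01 (-0.06 to 0.05), PDK1 -0.14 (-0.34 to 0.04) and SLC2A1 -0.03 (-0.16 to 0.16). Of 90 alternatives for medians of 10 lists 62 stayed within the spread between replicates and 28 moved further, over 9 lists. Depth limits genes under a few CPM, such as AC105339.2 with 78 counts in HT + RT.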
